A study of Mus musculus with 7 samples.

Results

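The Hox genes of the mouse were read from the count table of a femur RNA-seq study by symbol: every protein-coding gene named Hoxa, Hoxb, Hoxc or Hoxd followed by a number. This gave 39 of the 49671 genes in the table. The study compared 4 femurs of wild-type mice taken 3 days after a traumatic brain injury (TBI) with 3 femurs of wild-type, uninjured control mice. The injury was made by controlled cortical impact, a piston blow to the opened skull. No surgery is described for the controls, so effects of the surgery and of the impact cannot be told apart. RNA came from whole crushed femurs with their cartilage, marrow and adhering tissue, so fewer cells of a type cannot be told apart from less RNA per cell. The sources used here give no strain, age or sex. They also do not say that each numbered sample was a separate mouse, so the spread behind the p-values may be technical.

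Hox genes encode homeodomain transcription factors that give cells along the body axis and the limb their position. In mammals they lie in 4 clusters, HoxA to HoxD, and within a cluster the genes are numbered by paralogue group, 1 to 13, in the order in which they sit on the chromosome. Low numbers act toward the head and high numbers toward the tail and, in the limb, toward the toes. In mouse embryos, genes of group 10 shape the thigh bone, genes of group 11 the shin and genes of group 13 the foot, and adult limb cells are known to keep much of this address.

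All 4 clusters were transcribed in the femur, but neither evenly nor along their whole length. HoxA had 11 members on GRCm38 chromosome 6, and all 11 were measured well enough to be tested. HoxB had 10 members on chromosome 11 (96194316 to 96368256), with 8 tested. HoxC had 9 members on chromosome 15 (102921103 to 103036852), with 7 tested. HoxD had 9 members on chromosome 2 (74668310 to 74765142), with only 4 tested. In all, 30 of the 39 members passed the filter on low counts, 35 had at least 1 count, and 29 had counts in every library.

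Within its span HoxD ran from nearly silent genes to the Hox gene with the second-highest level per exonic length. Its promoters show how unlike neighbouring Hox starts can be. The windows below are from RefSeq on GRCm38.p6, 250 bases before and 50 after the annotated start, on the plus strand. They are shown for Hoxd8 and Hoxd9, the highest HoxD genes, and for Hoxd13, at the far end, which had almost no reads. Capitals mark CANNTG, the E-box, a 6-letter motif that reads alike on both strands.
Hoxd8, chr2:74704365-74704664: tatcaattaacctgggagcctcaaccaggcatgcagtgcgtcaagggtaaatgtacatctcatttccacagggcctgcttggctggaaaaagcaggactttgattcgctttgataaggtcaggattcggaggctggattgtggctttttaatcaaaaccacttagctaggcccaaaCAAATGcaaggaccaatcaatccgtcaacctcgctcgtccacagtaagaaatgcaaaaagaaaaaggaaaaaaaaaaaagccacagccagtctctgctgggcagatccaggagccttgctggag
Hoxd9, chr2:74697513-74697812: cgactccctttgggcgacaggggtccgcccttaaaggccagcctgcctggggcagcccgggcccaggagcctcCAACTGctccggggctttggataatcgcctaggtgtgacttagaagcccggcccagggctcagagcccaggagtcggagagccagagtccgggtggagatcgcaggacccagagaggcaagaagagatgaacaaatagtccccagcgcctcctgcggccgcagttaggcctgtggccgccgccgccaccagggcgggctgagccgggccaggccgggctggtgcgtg
Hoxd13, chr2:74667975-74668274: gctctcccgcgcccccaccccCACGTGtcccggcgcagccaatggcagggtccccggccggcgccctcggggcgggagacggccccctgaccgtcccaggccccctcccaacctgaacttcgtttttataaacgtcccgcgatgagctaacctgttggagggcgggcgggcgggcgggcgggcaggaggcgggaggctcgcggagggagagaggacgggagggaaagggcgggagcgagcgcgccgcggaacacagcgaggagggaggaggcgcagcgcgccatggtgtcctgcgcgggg
The Hoxd8 window held 6 CpG dinucleotides, the Hoxd9 window 20 and the Hoxd13 window 37. These 3 windows do not give a rule for level. Hoxd12, with 0 counts, had 13 CpG, and Hoxd11, with 1 count in all, had windows with 4 and 25. Hoxa5, among the 10 highest genes, had 29. A relation of CpG to level was not tested. RefSeq gave 24 such windows for 22 of the members, with none for Hoxc10 and only that of Hoxc4 from HoxC. They held a median of 14.5 CpG (4 to 45), against 7 over all 32851 windows of the same length, and a median GC content of 57.7%, against 52.7%. CANNTG was found in 17 of the 24 Hox windows (70.8%), against 72.3% of all windows. TATAAA, searched on both strands, was found in 4 of the 24 (16.7%), against 13.6% of all windows. These matches are letters in a window and no evidence of binding.

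**Figure D1:**
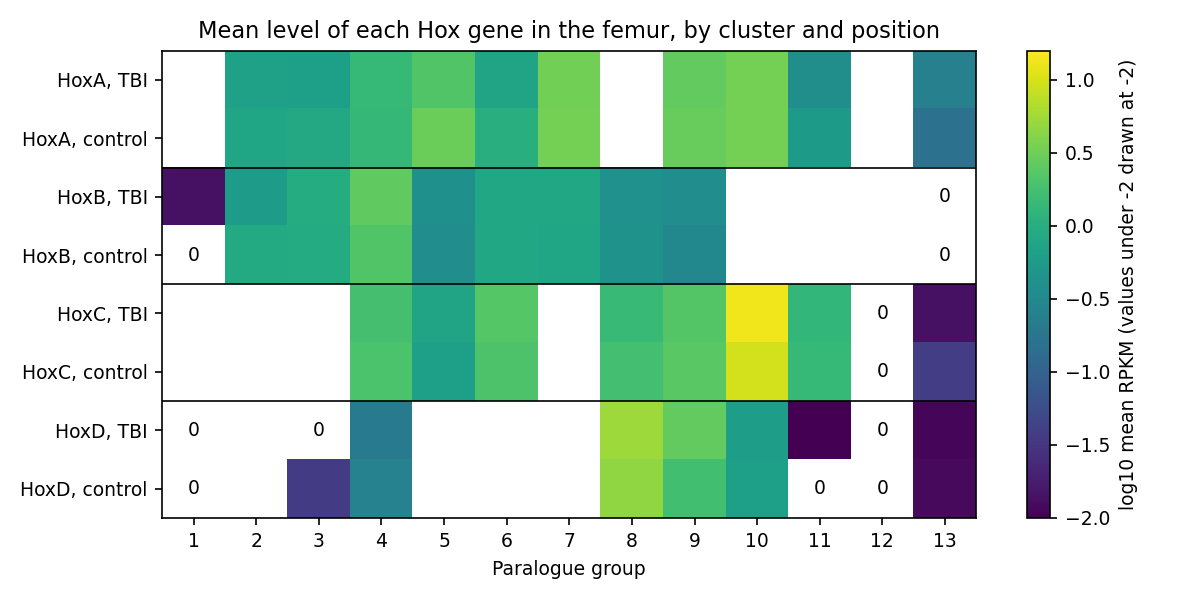
Mean level of each Hox gene in TBI libraries (upper row of each cluster) and control libraries (lower row), as log10 of the RPKM (counts scaled by library and gene length), over the paralogue groups from 1 to 13. Empty squares have no gene plotted and a printed 0 marks a gene with no counts in that group. Hoxc10 is the brightest square in both groups, and both ends of HoxB and HoxD and the high-numbered end of HoxC are at 0 or dark.

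Levels are given as RPKM, counts scaled by library (TMM) and by the exonic length of the gene. The order of the genes depends on the length used. By RPKM a single gene led all others. Hoxc10, which is active in the hindlimb and lumbar region, measured 4.96, 9.37, 20.03 and 19.1 RPKM in TBI 1 to 4 and 5.53, 10.4 and 12.4 RPKM in control 1 to 3. It exceeded the next gene, Hoxd8, in 7 of 7 libraries. The TBI group held both its lowest and its highest library, and the groups overlapped. CPM is scaled by library but not by gene length. In CPM, Hoxa9 stood above Hoxc10 in TBI 1 (11.5 against 9.47) and control 1 (14.3 against 10.6). Hoxb4 also did so in TBI 1 (9.60), and Hoxc10 led in the other libraries. Hoxa9 has 5580 exonic and 813 coding bases, and Hoxc10 has 1909 and 1026. Hoxd8, a gene of the middle of the HoxD cluster, measured 2.47, 3.94, 7.55 and 7.72 RPKM in TBI 1 to 4 and 3.16, 4.73 and 6.16 RPKM in control 1 to 3. By RPKM it exceeded Hoxa10 in 7 of 7 libraries. In CPM, Hoxa10 stood above Hoxd8 in TBI 1 (7.34 against 6.78), control 1 (9.21 against 8.67) and control 2 (13.05 against 12.99). Hoxa9 stood above Hoxd8 in CPM in TBI 1, TBI 2, control 1 and control 2. For Hoxd8, TBI 3 and TBI 4 again stood highest and TBI 1 lowest.

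Below these came a group of genes whose order was not fixed. Hoxa10, the group 10 gene of HoxA, measured 2.25, 3.20, 4.34 and 3.82 RPKM in TBI 1 to 4 and 2.82, 3.99 and 3.30 RPKM in control 1 to 3. Hoxa7 measured 2.30, 2.52, 3.81 and 4.67 RPKM in TBI 1 to 4 and 2.32, 3.75 and 4.15 RPKM in control 1 to 3. Hoxa10 was the higher of the pair in only 4 of 7 libraries, so their means (3.39 and 3.36 RPKM over all libraries) do not rank them. Hoxa9, which blood stem and progenitor cells use for self-renewal, measured 2.06, 2.92, 3.23 and 2.52 RPKM in TBI 1 to 4 and 2.56, 3.20 and 2.89 RPKM in control 1 to 3. It varied less between libraries than any gene above it, with an SD over the 7 libraries of 0.415 RPKM around a mean of 2.77.

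Hoxa5, a trunk gene also known from lung development, measured 1.62, 2.00, 2.14 and 2.86 RPKM in TBI 1 to 4 and 2.53, 3.33 and 3.33 RPKM in control 1 to 3. Only TBI 4 reached into the control range. Hoxb4, another gene tied to the self-renewal of blood stem cells and the highest of HoxB, measured 3.74, 2.69, 1.27 and 2.67 RPKM in TBI 1 to 4 and 2.16, 2.02 and 2.19 RPKM in control 1 to 3. Its highest library was TBI 1 and its lowest TBI 3, whereas Hoxc10 was lowest in TBI 1 and highest in TBI 3, and the controls lay close together between them. Hoxc9, which marks the thoracic level of the spinal cord, measured 1.14, 2.00, 2.54 and 3.12 RPKM in TBI 1 to 4 and 1.58, 2.75 and 2.81 RPKM in control 1 to 3. Hoxd9 measured 1.40, 1.85, 4.04 and 3.38 RPKM in TBI 1 to 4 and 1.204, 1.56 and 2.39 RPKM in control 1 to 3. For Hoxd9, TBI 3 and TBI 4 were above every control and TBI 1 and TBI 2 were inside the control range. Hoxc6 measured 1.26, 3.01, 2.18 and 2.54 RPKM in TBI 1 to 4 and 1.84, 1.96 and 2.25 RPKM in control 1 to 3. From Hoxa7 down to Hoxc6, each gene exceeded the next one below it in 3 to 5 of 7 libraries, so these neighbours cannot be ranked.

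**Figure D2:**
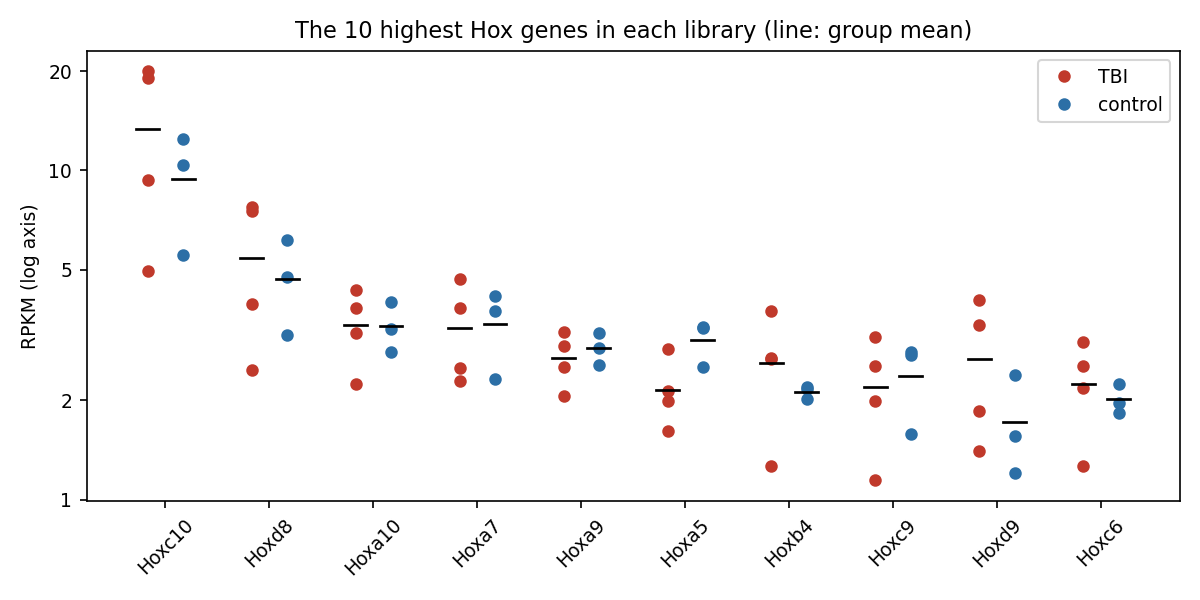
RPKM of the 10 highest Hox genes in each library on a log axis, TBI libraries left and control libraries right of each gene, with a line at each group mean. Hoxc10 spans 4.96 to 20.03 RPKM in TBI libraries and 5.53 to 12.4 RPKM in control libraries, and the groups overlap for every gene.

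Summed over paralogues, group 10 stood highest by RPKM, but this lead depended on the length used. In CPM per kilobase of coding sequence, group 9 stood above group 10 in control 1 to 3 (26.2, 34.6 and 34.8 against 17.9, 30.5 and 34.0). It also did so in TBI 1 (21.3 against 15.3) and TBI 2 (31.4 against 26.5). In TBI 3 (40.5 against 50.1) and TBI 4 (35.3 against 47.3) it did not. By RPKM, group 10 gave 7.33, 13.01, 25.3 and 23.9 in TBI 1 to 4 and 8.52, 14.8 and 17.02 in control 1 to 3. This was 30.1 ± 6.7% of the summed Hox level in TBI libraries and 25.6 ± 3.3% in control libraries (SD, n = 4 and n = 3). Group 11 was much lower, at 1.68 ± 0.711 RPKM in TBI and 1.94 ± 0.252 RPKM in control libraries. Group 13 had 0.269 ± 0.169 RPKM in TBI and 0.208 ± 0.114 RPKM in control libraries. Hoxa13 gave 0.244 RPKM of this in TBI and 0.158 RPKM in control libraries, and group 12 had no counts at all. Groups 1 to 3, whose genes pattern the hindbrain and neck, summed to 3.16 ± 0.604 RPKM in TBI and 3.93 ± 0.627 RPKM in control libraries.

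The 9 members that were not tested were all at the ends of their clusters or within HoxD. Hoxb13, Hoxc12, Hoxd1 and Hoxd12 had 0 counts in every library, which allows 0.128 to 0.189 CPM (counts scaled to a common depth) in a library at these depths, a limit for counting error only. Hoxd11 had 1 count in all, in TBI 4. Hoxb1 had 1 and 2 counts in TBI 1 and TBI 2 and none in the other libraries. Hoxd13 had 2 counts in TBI 3 and 2 in control 1. Hoxc13 had 1, 1, 0 and 1 counts in TBI 1 to 4 and 2, 3 and 0 in control 1 to 3. Hoxd3 had 0 counts in every TBI library and 2, 0 and 7 in control 1 to 3. Of its exonic length, 62.3% overlaps other genes on the same strand, among them Hoxd4 (52.3% of whose length is shared in the same way), so reads from these genes may have been set aside or split. Hoxa13 passed the filter with 6, 9, 21 and 12 counts in TBI 1 to 4 and 11, 0 and 13 in control 1 to 3.

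Among the clusters, the HoxB sum varied least between libraries. HoxB summed to 7.005, 6.94, 7.52 and 6.39 RPKM in TBI 1 to 4 and 6.54, 7.16 and 6.26 RPKM in control 1 to 3. HoxC summed to 11.3, 19.3, 31.1 and 30.7 RPKM in TBI 1 to 4 and 13.7, 21.3 and 23.8 RPKM in control 1 to 3. HoxD summed to 4.13, 6.37, 12.8 and 12.4 RPKM in TBI 1 to 4 and 4.75, 6.98 and 10.3 RPKM in control 1 to 3. HoxC and HoxD thus differed widely between femurs of the same group, with TBI 1 and control 1 lowest in both, while HoxB stayed within 6.26 to 7.52 RPKM. HoxA lay between these patterns, at 15.9 ± 3.75 RPKM in TBI and 17.9 ± 3.38 RPKM in control libraries (SD).

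The design sets injured against uninjured mice to see what differs in a bone far from the brain. No Hox gene passed the threshold (adjusted p under 0.05, edgeR's quasi-likelihood test with Benjamini-Hochberg adjustment), and neither did any of the 17144 genes tested (0%). At an unadjusted p under 0.05 the count was 0 of 30 members in edgeR, against 7.34% of all genes tested, and 0 in DESeq2, against 8.06%. DESeq2 called 103 genes in all (0.601%) and no member. For no tested member did the TBI and control libraries separate, against 8.04% of all genes. The estimates were lower in TBI for 18 members and higher for 12, against 45.6% lower over all genes, and their median log2 fold change (TBI minus control) was −0.05 (quartiles −0.26 and 0.15), beside 0.03 (−0.15 and 0.21) over all genes. That median turned positive without TBI 1 (0.09), control 2 (0.01) or control 3 (0.04). Standard errors of the members ran from 0.18 to 0.81 with a median of 0.39, so differences of ordinary size could not be detected for most of them.

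The member with the smallest p was Hoxa5. Its log2 fold change was −0.51 ± 0.24 (SE), with an unadjusted p of 0.0613 and an adjusted p of 0.694 in edgeR, with 2.15 ± 0.521 RPKM in TBI and 3.06 ± 0.464 RPKM in control libraries (SD, n = 4 and n = 3). Hoxb2, a hindbrain gene, measured 0.580 ± 0.159 RPKM in TBI and 0.911 ± 0.368 RPKM in control libraries, a log2 fold change of −0.64 ± 0.35. Hoxa3, a gene of the neck region, stood at −0.39 ± 0.23. Hoxd9 had the highest estimate, 0.63 ± 0.41, and Hoxc10 stood at 0.50 ± 0.48 (adjusted p = 0.788 in edgeR). Both rested in part on single libraries: Hoxd9 was at 0.36 without TBI 3 and 0.95 without control 3, and Hoxc10 at 0.23 without control 1 and 0.77 without TBI 1. The other highly transcribed members had estimates smaller than their SE. Hoxd8 stood at 0.21 ± 0.40, Hoxb4 at 0.29 ± 0.32, Hoxc6 at 0.16 ± 0.29 and Hoxa10 at 0.01 ± 0.24. Hoxa7 stood at −0.04 ± 0.30, Hoxa9 at −0.10 ± 0.18 and Hoxc9 at −0.11 ± 0.35. By position, 4 of the 5 tested members of groups 1 to 3 had lower estimates (median −0.39), as had 9 of the 15 of groups 4 to 8 (median −0.01) and 5 of the 10 of groups 9 to 13 (median −0.03).

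**Figure D3:**
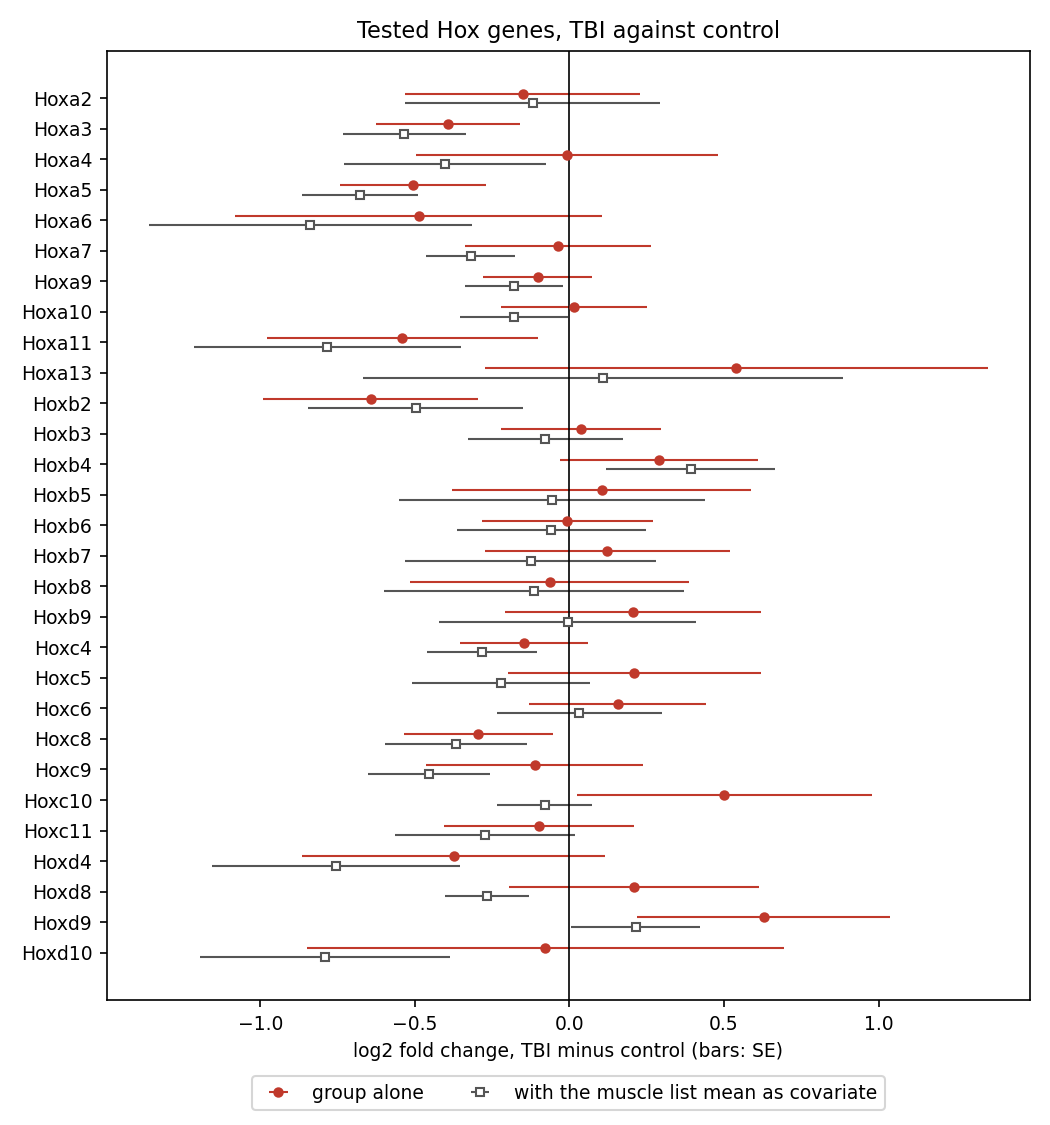
Log2 fold change of 29 tested Hox genes, TBI minus control, with bars of 1 SE, in the fit with group alone (red circles) and in the fit with the muscle marker mean as a covariate (open squares). In the fit with group alone 17 of the 29 plotted estimates lie left of 0, and with the covariate 25 do.

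The genes of groups 9 to 13 made up 39.7, 46.1, 55.8 and 50.8% of the summed Hox level in TBI 1 to 4 and 41.4, 45.1 and 45.8% in control 1 to 3. The means were 48.1 ± 6.85% in TBI and 44.1 ± 2.34% in control libraries (SD), a difference of 4.01 percentage points that is smaller than the SD among the TBI libraries. The difference was 1.45 points without TBI 3 and 6.81 points without TBI 1.

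The differences among femurs of the same group were larger than those between groups for the leading genes, and skeletal muscle transcripts varied in the same libraries. All 12 muscle markers, among them Acta1 (skeletal actin) and Ckm (muscle creatine kinase), were detected in every library, so muscle RNA was part of every library. Together they took 2.41, 3.81, 8.37 and 10.2% of the counts in TBI 1 to 4 and 2.02, 3.76 and 6.31% in control 1 to 3. In both groups this share rose with the replicate number, so muscle RNA cannot be told apart from anything else that followed the sample numbers. In both groups the libraries with the most muscle RNA were also high in Hoxc10 and Hoxd8. Among the controls the order of the 3 libraries was the same for the muscle share, Hoxc10, Hoxd8 and Hoxd9. Among the TBI libraries it was the same for the muscle share and Hoxd8, while for Hoxc10 and Hoxd9 TBI 3 stood above TBI 4.

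**Figure D4:**
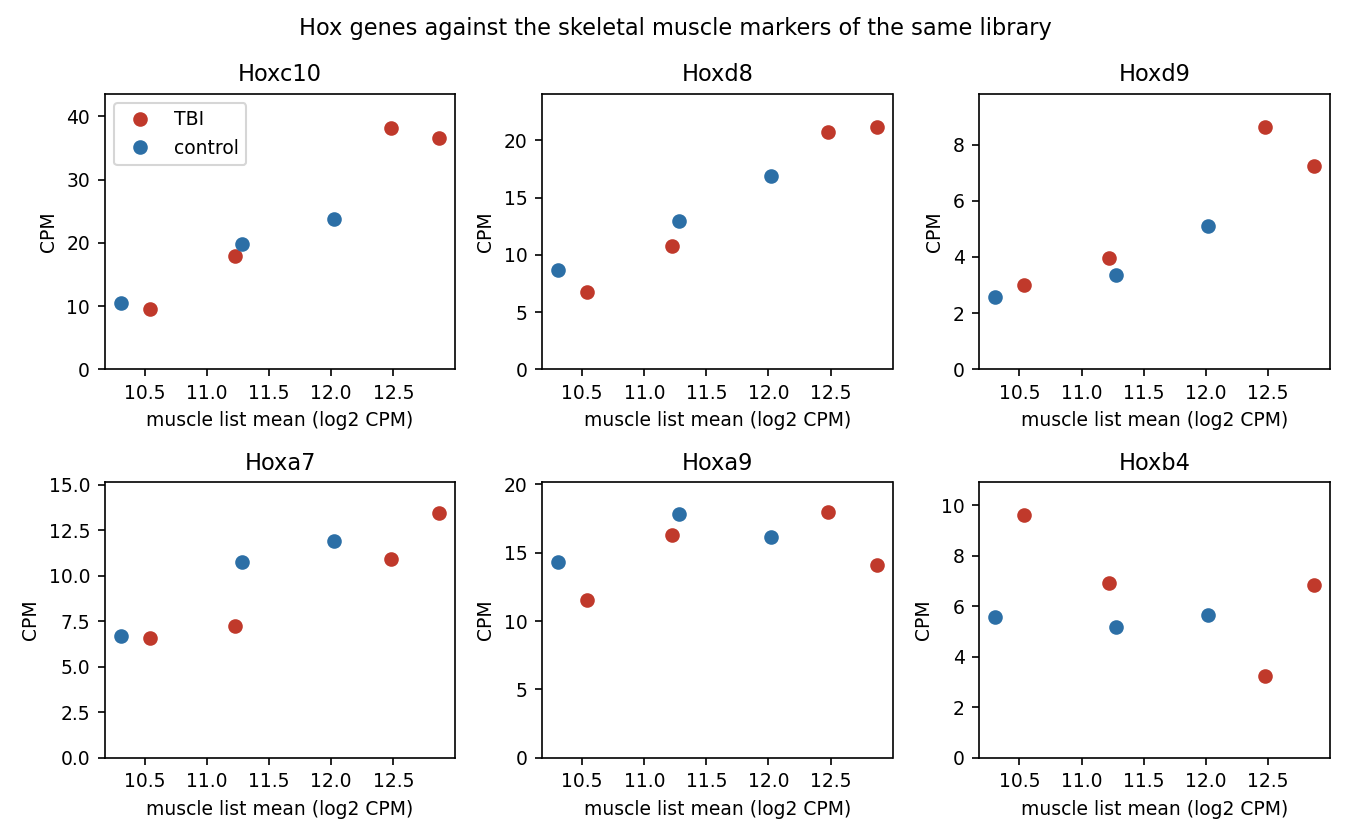
CPM of 6 Hox genes against the mean log2 CPM of the 12 muscle markers, 1 point per library, TBI in red and control in blue. Hoxc10, Hoxd8, Hoxd9 and Hoxa7 are high where the muscle mean is high in both groups, whereas Hoxa9 and Hoxb4 are not.

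To put a value on this, the muscle marker mean was entered beside group in the edgeR fit over all genes, and its slope was tested (the log2 change of a gene per 1 unit of log2 CPM of the muscle mean). This test was added after the values had been seen. Of the 30 members, 8 had a positive slope past the adjusted threshold, against 14.1% of all genes, and 0 had a negative one, against 9.84%. In all, 26 of 30 member slopes were positive, against 44.4% of all genes, with a median of 0.28 for members and −0.03 for all genes. Slopes past the threshold were thus common among all genes, and the muscle mean also stands for whatever else varied with it between these libraries. Hoxc10 had a slope of 0.81 ± 0.09 (SE, adjusted p = 8.81e-05 in edgeR), Hoxd8 0.67 ± 0.08 (adjusted p = 1.17e-04) and Hoxa7 0.46 ± 0.08 (adjusted p = 0.00252). Hoxd9 had 0.62 ± 0.11 (adjusted p = 0.00335) and Hoxd10, a limb and lumbar gene with 5 to 45 counts, 1.28 ± 0.24 (adjusted p = 0.00349). These 5 were called whichever of the 7 libraries was left out. Hoxc9 (0.53 ± 0.11, adjusted p = 0.00738) was lost without TBI 1. Hoxc5 (0.56 ± 0.16, adjusted p = 0.0255), which shares 166 exonic bases with Hoxc10 on the same strand, was lost without TBI 1 or TBI 4. Hoxa4 (0.64 ± 0.18, adjusted p = 0.0249) was called in only 2 of the 7 fits with a library left out, those without TBI 3 and without control 2.

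The slopes differed by cluster and position in description, and these differences were not tested. The called members were 3 of 4 tested in HoxD, 3 of 7 in HoxC, 2 of 11 in HoxA and 0 of 8 in HoxB. Over all genes, 14.1% had a called positive slope. The median slopes were 0.66, 0.26, 0.29 and 0.15 in HoxD, HoxC, HoxA and HoxB. By position the called members were 0 of 5 in groups 1 to 3, 4 of 15 in groups 4 to 8 and 4 of 10 in groups 9 to 13, beside the same 14.1%. Hoxb4 had a slope of −0.24 ± 0.15 and Hoxa9 of 0.13 ± 0.09, neither called. Whole-femur RNA does not tell which cells carried the transcripts.

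**Figure D5:**
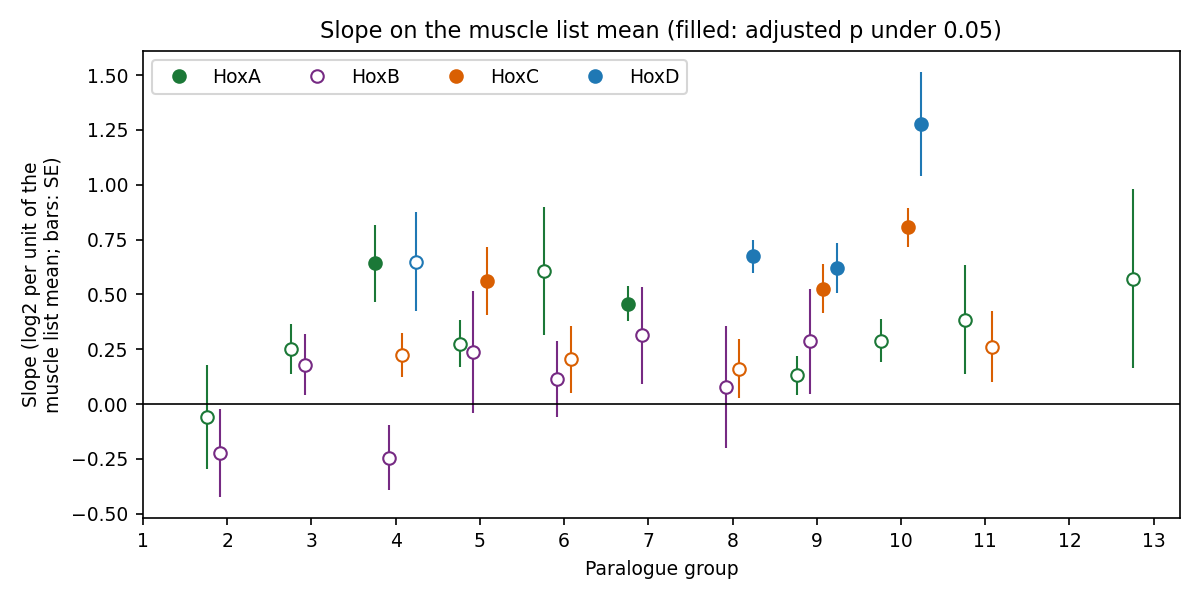
Slope of 29 tested Hox genes on the muscle marker mean (log2 per unit, bars of 1 SE) by paralogue group, coloured by cluster, with filled circles for an adjusted p under 0.05 in edgeR. The highest slope is that of Hoxd10 (1.28) and no HoxB gene is filled.

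With the muscle mean in the fit, no member was called for TBI against control (0% of all genes), and 3 of 30 had an unadjusted p under 0.05, against 16.2% of all genes tested. These were Hoxa5 (log2 fold change −0.68 ± 0.19, adjusted p = 0.113 in edgeR), Hoxa3 (−0.53 ± 0.20, adjusted p = 0.213) and Hoxc9 (−0.45 ± 0.20, adjusted p = 0.291). The estimates of Hoxc10 and Hoxd8, positive without the covariate, became −0.08 ± 0.15 and −0.27 ± 0.14. In this fit 26 of 30 estimates were lower in TBI, against 47.6% of all genes, and the median was −0.24, beside 0.01 over all genes. Bone and cartilage markers had negative estimates in these femurs, though none was called. All 9 osteoblast markers and all 10 chondrocyte markers had estimates lower in TBI (medians −0.72 and −0.70) in the fit with group alone, where 45.6% of all genes did. In that edgeR fit 8 of the osteoblast and 9 of the chondrocyte markers had an unadjusted p under 0.05, against 7.34% of all genes. The groups separated, lower in TBI, for 6 and 8 of them, against 5.38% of all genes. Of the 9 stromal markers, 8 had lower and 1 had higher estimates in that fit (median −0.52), with none called. An unadjusted p under 0.05 in edgeR was found for 6 of the stromal markers, and the groups separated, lower in TBI, for 6. The osteoblast markers took 0.943 to 1.62% of counts in TBI and 1.60 to 2.89% in control libraries, which overlap, and the chondrocyte markers 0.227 to 0.344% in TBI and 0.403 to 0.538% in control libraries. The stromal markers took 0.235 to 0.335% in TBI and 0.409 to 0.537% in control libraries, while the blood stem and progenitor markers took 0.0176 to 0.0251% in TBI and 0.0212 to 0.0237% in control libraries. Hox genes are active in skeletal and stromal cells. The osteoblast and chondrocyte mean was also entered as a covariate, but it did not overlap between the groups. The part of these skeletal cells in the Hox estimates therefore cannot be told apart from the group. The part of stromal cells was not tested. All 9 erythroid markers (median −0.67) and all 6 B cell markers (median −0.71) also had lower estimates, with none called. Of the erythroid markers, 6 had an unadjusted p under 0.05 in edgeR, and the groups separated, lower in TBI, for 6. For the B cell markers both counts were 0. All 12 muscle markers (median 0.77) and all 9 neutrophil markers (median 0.99) had higher estimates in TBI in the fit with group alone, with none called. The erythroid markers took 2.02 to 3.51% of counts in TBI and 4.43 to 5.51% in control libraries, and the B cell markers 0.00506 to 0.0189% in TBI and 0.0146 to 0.0253% in control libraries. Schwann cell markers, from the nerves, took 0.0114 to 0.0135% in TBI and 0.0127 to 0.0133% in control libraries.

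Hox proteins bind DNA together with TALE homeodomain partners, the Pbx, Meis and Pknox proteins. All 9 of these genes were tested, 0 were called, and 3 had lower and 6 higher estimates in TBI (median 0.07). Pbx2 was the most abundant, with 15.4 ± 2.49 RPKM in TBI and 14.5 ± 1.43 RPKM in control libraries. A pair of partners had separated groups, both lower in TBI, where 5.38% of all genes did so. Pbx4 measured 1.83 ± 0.447 RPKM in TBI and 3.28 ± 0.332 RPKM in control libraries, a log2 fold change of −0.84 ± 0.23 (unadjusted p = 0.00644, adjusted p = 0.483 in edgeR). Meis3 measured 2.70 ± 0.502 RPKM in TBI and 3.90 ± 0.356 RPKM in control libraries, a log2 fold change of −0.53 ± 0.18 (unadjusted p = 0.0165, adjusted p = 0.591 in edgeR). Of the 9 partners, only Pknox2 had a called positive slope on the muscle mean (0.54), against 14.1% of all genes. Only Meis1 had a called negative one (−0.27, adjusted p = 0.0486 in edgeR), against 9.84% of all genes.

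Of 27 other regulators of limb patterning, 19 were tested, 0 were called, and 16 had lower and 3 higher estimates in TBI (median −0.29), against 45.6% lower and a median of 0.03 over all genes. The hindlimb factors Pitx1 and Tbx4 measured 1.54 ± 0.408 and 0.848 ± 0.241 RPKM in TBI and 1.41 ± 0.503 and 0.897 ± 0.347 RPKM in control libraries. The forelimb factor Tbx5 had a lower level per length, 0.182 ± 0.108 RPKM in TBI and 0.187 ± 0.105 RPKM in control libraries. Tbx15, which acts in limb skeleton and in muscle, was the highest, with 25.3 ± 12.7 RPKM in TBI and 18.7 ± 6.73 RPKM in control libraries, and its slope on the muscle mean was 0.71 (adjusted p = 4.22e-06 in edgeR). With Prrx1 (0.30) and En1 (0.81), 3 of the 19 had a called positive slope, against 14.1% of all genes. Grem1 (−0.45) had the 1 called negative slope, against 9.84% of all genes. Unadjusted p-values under 0.05 in edgeR were found for 4 of the 19, against 7.34% of all genes, all lower in TBI and none past adjustment. They were Gli3, an effector of hedgehog signalling (−0.57 ± 0.18), Shox2, needed for proximal limb bones (−0.74 ± 0.24), Prrx2 (−0.84 ± 0.32) and Dlx5, which also acts in osteoblasts (−0.62 ± 0.24). Gli3 was the only 1 of the 19 with separated groups, lower in TBI, where 5.38% of all genes did so. Shh, the signal of the limb bud's posterior edge, and Cdx1, Cdx2 and Cdx4, embryonic activators of Hox genes, had 0 counts in every library.

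Polycomb proteins keep Hox genes silent and Trithorax proteins keep them active. All 21 listed genes of these groups were tested, 0 were called and 0 had an unadjusted p under 0.05 in edgeR. The estimates were lower for 13 and higher for 8 (median −0.09, range −0.38 to 0.26). Suz12 and Ezh2, core subunits of the complex that methylates histone H3 at silent Hox genes, measured 27.4 ± 3.82 and 19.0 ± 2.74 RPKM in TBI and 27.4 ± 2.94 and 21.6 ± 2.41 RPKM in control libraries. Pcgf2, a subunit of Polycomb repressive complex 1, was the only 1 of the 21 with separated groups, lower in TBI, where 5.38% of all genes did so, at 2.41 ± 0.525 RPKM in TBI and 3.13 ± 0.208 RPKM in control libraries.

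Within the cluster spans, 43 non-coding genes are annotated, of which 18 had 0 counts in every library and 7 were tested. None was called, and 5 had lower and 2 higher estimates (median −0.32). Hotairm1, an antisense RNA of the HoxA cluster known from myeloid differentiation, had 31, 19, 18 and 21 counts in TBI 1 to 4 and 13, 11 and 15 counts in control 1 to 3. It was the only 1 of the 7 whose groups separated, higher in TBI, where 2.66% of all genes did so, with a log2 fold change of 0.62 ± 0.32 (unadjusted p = 0.0865, adjusted p = 0.726 in edgeR). Neutrophil markers, which share the myeloid lineage, took 0.185 to 1.27% of counts in TBI and 0.294 to 0.496% in control libraries, and their part was not tested. Hoxb3os, which overlaps 52.9% of the exonic length of Hoxb3 on the other strand, had 38 to 68 counts in TBI and 55 to 65 in control libraries. How the counting used strand is unknown here, so reads of Hoxb3 and Hoxb3os, and likewise of Hoxa11 and Hoxa11os (35.0% of Hoxa11 shared), may be mixed.

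Total counts ran from 20470241 to 21783534 in TBI and from 15461528 to 20675655 in control libraries, 1 count was worth 0.0426 to 0.0630 CPM after scaling, and 22360 to 23424 genes were detected per library. The labels and headers name no batch.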

How the data were processed

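Femur RNA was sequenced with a strand-specific mRNA kit, per the labels' protocols. The count table was used as the authors deposited it: unnormalized read counts of 49671 Ensembl genes. Per the submitters' processing notes STAR, DESeq and GRCm38 were used (no versions given), and the sources used here do not name the counting step. The deposited normalized table was not used. GENCODE M21 gave symbols, lengths and coordinates for 49326 IDs (99.3%).

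Counts were filtered with filterByExpr (17144 genes), scaled by TMM and tested with edgeR 4.0.16 in R 4.3.3 (quasi-likelihood F-test, group as the only term, Benjamini-Hochberg over all genes tested, threshold 0.05). DESeq2 1.42.0 and limma 3.58.1 (voom) were alternatives. The procedure was tested on simulated data. RPKM is TMM-scaled CPM per kilobase of merged exons. Muscle list means are mean log2 CPM with a prior count of 2. Members given in every library are the 10 highest by mean RPKM, any with an unadjusted p under 0.05 or separated groups (there were none) and the highest of each cluster; any others named were chosen after their values were seen. Members and gene lists were chosen with earlier results of these data known. Replicate libraries differed by more than sampling noise (chi-square per degree of freedom 27.2 or more).

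The labels do not say whether replicate numbers pair the samples, and the main fit did not pair them. Correlations of same-numbered libraries' deviations from their group means were 0.55, −0.03 and 0.32. Those of differently numbered libraries ran from −0.45 to 0.39, so these values do not settle whether the samples were paired. One member is not reported here by name; it stays in the fits and counts.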

Additional observations from a re-analysis of the deposited data

How the results depend on the processing

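The count of 0 called Hox genes held under every alternative run (RLE and upper quartile scaling, no filter, 1 CPM in 3 libraries, DESeq2, limma-voom, the replicate number as a block, either covariate, each library omitted in turn, and a threshold of 0.1), while DESeq2 called 103 genes in all. Hoxa10 turned negative with upper quartile scaling (−0.027), voom (−0.015), the replicate block (−0.080), the muscle mean (−0.18) and the osteoblast and chondrocyte mean (−0.63). Hoxd8 did so with the replicate block (−0.10), the muscle mean (−0.27) and the skeletal mean (−1.91), and Hoxc10 with the muscle (−0.080) and skeletal means (−1.88). The skeletal mean also reversed Hoxc6 (−1.05) and Hoxd9 (−1.43) and took the members' median to −1.05. That mean does not overlap between the groups (7.40 to 7.74 log2 CPM in TBI and 7.99 to 8.39 in control libraries), so it and the group cannot be told apart. Leaving out single libraries gave −0.12 to 0.17 for Hoxa10, −0.25 to 0.13 for Hoxa7, −0.20 to 0.0011 for Hoxa9, −0.031 to 0.35 for Hoxc6, −0.34 to 0.10 for Hoxc9, −0.012 to 0.46 for Hoxd8, 0.06 to 0.51 for Hoxb4, 0.23 to 0.77 for Hoxc10, 0.36 to 0.95 for Hoxd9, −0.67 to −0.40 for Hoxa5 and −0.19 to 0.09 for the median. The count of called muscle slopes was 5 to 8 with a library left out, lowest without TBI 1, and 8 or 9 under other scalings, filters and tools. The same-numbered libraries did not all deviate together, and with the replicate block the median was −0.12. The difference in the share of groups 9 to 13 was 2.91 points in CPM and 2.33 points by coding length. Genes under about 20 counts per library are limited by depth. Causes of these changes were not tested.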
